A study of Mus musculus with 22 samples.

Results

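The smooth muscle and pericyte genes of interscapular brown adipose tissue (BAT) were described as a list of 10 genes that mark the cells of the vessel wall: 7 contractile genes (Acta2, Myh11, Tagln, Cnn1, Myl9, Lmod1 and Des) and 3 pericyte genes (Rgs5, Pdgfrb and Cspg4). The genes were listed by name for what they are known to do, and the rule that lists them uses no measured value. Earlier results of these data were known when they were chosen. Each of the 10 was found once among the 55487 genes of both count tables, and each passed the filter on low counts in both. The study compared BATs of wild-type mice (WT) and of mice that lacked CPEB2, an RNA-binding protein that controls translation, in every tissue (KO). Untreated WT and KO mice (5 each, 21 to 25 weeks old, kept without food for some hours before collection) made up one table. The other held 4 groups of 3 mice that were injected in the BAT at 16 weeks with an adeno-associated virus (AAV), at 2e+10 vector genomes in 30 µl, and killed 9 weeks later at 25 weeks. Each genotype received either AAV-GFP or AAV-PRDM16 (WT + AAV-GFP and so on). GFP served as the control cargo, and PRDM16 is a transcriptional regulator that favours brown fat over muscle genes. The mice were on a C57BL/6 background. The labels give all mice as male and each library as 1 mouse. The KO was global, so the deletion was not limited to adipocytes, and since many KO pups die soon after birth, the KO mice were survivors.

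Smooth muscle cells wrap arteries and veins, and their tone is set by actin and a smooth muscle form of myosin. Pericytes sit on capillaries, share the basement membrane of the endothelium and answer to PDGF-B released by it. BAT is among the most densely vascularised tissues, and its blood flow follows thermogenesis. Skeletal muscle lies next to the interscapular depot and uses other isoforms of the same contractile proteins, so that vessel wall and skeletal muscle transcripts can be told apart by gene, with the exception of Des, which encodes the intermediate filament desmin of all muscle types.

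In 22 libraries of 55320927 to 162721202 counts, some library facts bear on the members. Cpeb2, the targeted gene, was at 10.5 to 14.0 CPM (counts scaled to the size of each library) in the 6 WT libraries with AAV and at 4.33 to 5.55 CPM in the 6 KO libraries with AAV. In the untreated cohort it was at 7.69 to 14.3 CPM in WT and at 2.10 to 5.78 CPM in 4 KO libraries, but the library labelled KO 1 held 11.7 CPM, inside the WT range. Although all untreated mice are labelled male, 6 of their libraries (WT 3 and 5, and KO 1, 3, 4 and 5) held at most 1.17 CPM of 4 Y-linked genes and at least 104 CPM of Xist. The summed level of 24 skeletal muscle genes ran from 63.7 to 9250 CPM in the untreated cohort, and was highest in WT 3 (4550 CPM) and in KO 1, 2 and 5 (8130, 9250 and 1570 CPM). With AAV the 20 of these genes that passed the filter on low counts summed to 35.6 to 164 CPM. WT 1 and 2 held the least Acta2 and Tagln of the untreated cohort. Over all genes they also stood closer to each other (median chi-square per gene 11.6) than to WT 3, 4 and 5 (37.6 to 53.9). Their brown fat genes summed to 10500 and 9510 CPM, against 14300 to 19100 CPM in WT 3, 4 and 5. Untreated fold changes are also given without WT 1 and 2. Leaving out the lowest WT libraries by itself lowers KO over WT for Acta2 and Tagln, so for these genes it is no independent check. The 2 tables were scaled separately, so levels in the cohorts are set side by side without a test. In bulk tissue, fewer vessel wall cells and less RNA per cell cannot be told apart.

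Rgs5, which encodes a regulator of G protein signalling and is a pericyte marker, was the most abundant member per transcript length in every library except KO 5, where Des stood at 42.7 against 22.6 CPM per kilobase. Per kilobase of exon (CPM divided by the exon length of GENCODE M21), Rgs5 averaged 65.1 ± 22 (SD, n = 10) in the untreated cohort, followed by Des at 28.5 ± 16.5, Myl9 (myosin regulatory light chain) at 13.2 ± 5.49, Acta2 (smooth muscle actin) at 10.3 ± 3.72 and Tagln (the actin-binding protein transgelin) at 6.32 ± 2.45. Cspg4, the NG2 proteoglycan of pericytes, averaged 5.80 ± 1.85, Pdgfrb, the receptor for PDGF-B, averaged 4.39 ± 1.21, and Myh11, the smooth muscle myosin heavy chain, averaged 2.55 ± 1.09. Lmod1 (leiomodin, an actin nucleator) and Cnn1 (calponin, an actin-binding regulator) were lowest at 0.641 ± 0.200 and 0.479 ± 0.284. The ranges of mean ± SD overlapped between each pair of neighbours in this order except Myh11 and Lmod1.

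With AAV the order per kilobase began with Rgs5 at 87.9 ± 16.1 (SD, n = 12) and Des at 10.5 ± 2.76, and ended with Lmod1 at 0.283 ± 0.065 and Cnn1 at 0.253 ± 0.125. Cspg4 (6.48 ± 0.427) came next, and the contractile genes Myl9 (6.02 ± 0.871), Acta2 (4.24 ± 0.816), Tagln (2.32 ± 0.660) and Myh11 (2.02 ± 0.435) lay between 6.02 and 2.02. The ranges of mean ± SD did not overlap between Rgs5 and Des, Des and Cspg4, Acta2 and Tagln, or Myh11 and Lmod1. Each of the 7 contractile genes had a lower mean in the AAV cohort than in the untreated one, while Rgs5, Cspg4 and Pdgfrb (4.89 ± 0.924) had a higher one. The libraries were more alike with AAV: the highest library exceeded the lowest by 1.24 times for Cspg4 and by 1.61 to 2.67 times for the other members but Cnn1 (6.41 times, from 0.234 to 1.5 CPM), against 2.39 to 5.36 times over the 10 members in the untreated cohort.

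**Figure D1:**
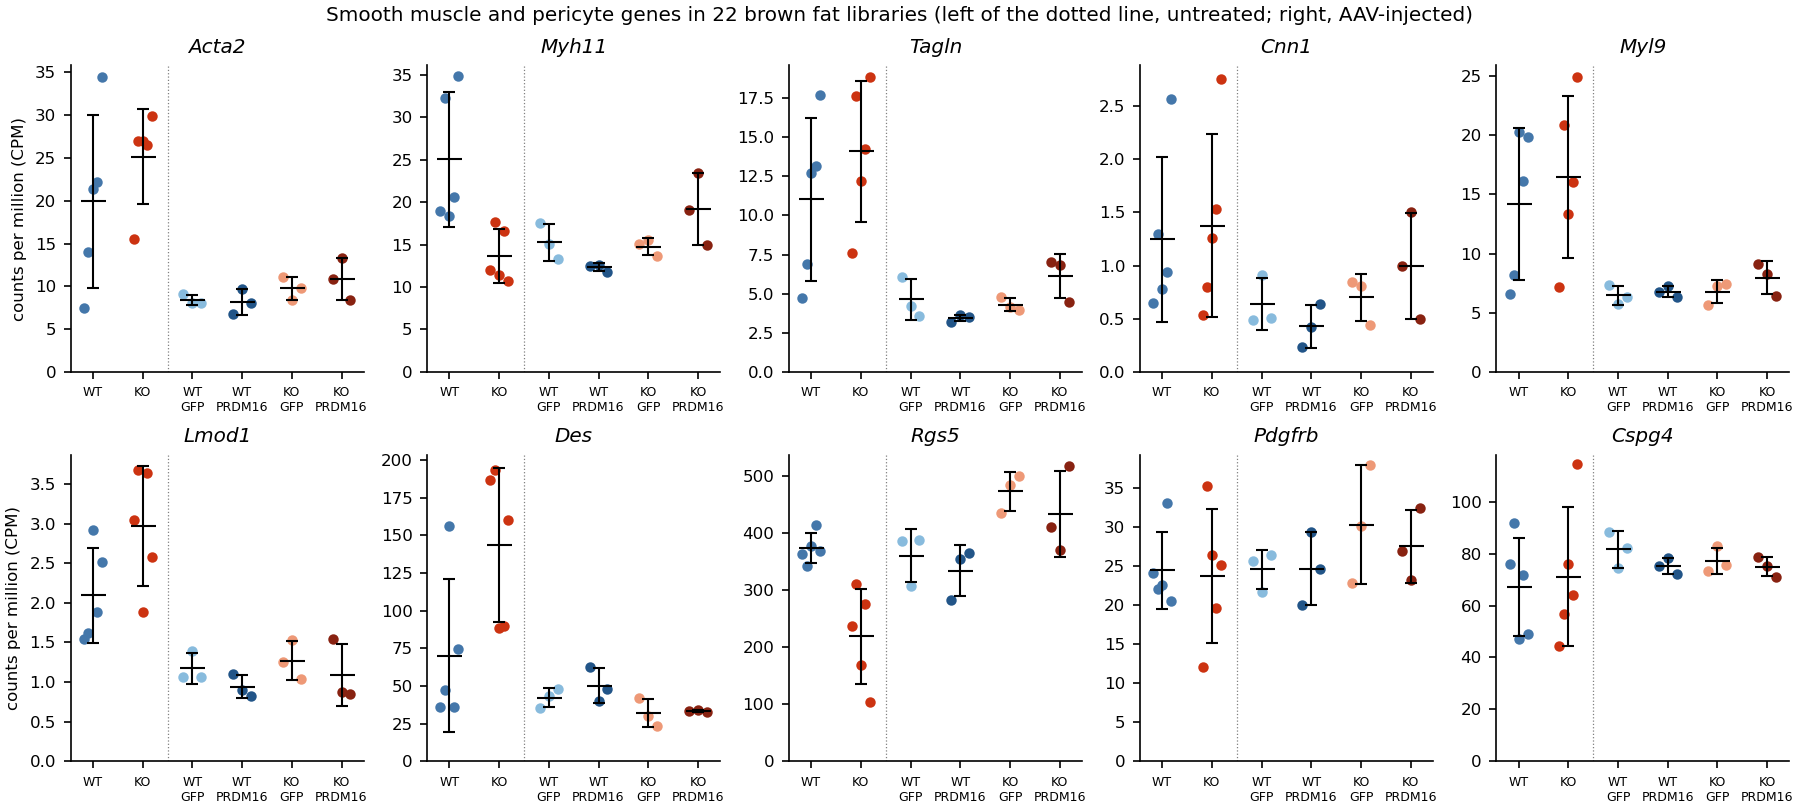
Level of each of the 10 genes in each of the 22 libraries, in CPM on a linear axis from 0. Points are libraries (1 mouse each), the long dash is the group mean and the bars are 1 SD; untreated groups stand left of the dotted line and AAV-injected groups right of it. Rgs5 and Myh11 of the 5 untreated KO libraries lie below all 5 untreated WT libraries, and Rgs5 of the 3 KO + AAV-GFP libraries lies above the 3 WT + AAV-GFP libraries.

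The transcripts of the members were nearly unique in sequence. Of the 50-base words in the annotated transcripts of each gene, none occurred in a transcript of another gene for 8 members. Myh11 shared 26 of its 7644 words (0.340%) with other genes, led by the non-muscle myosin gene Myh9. Acta2 shared 7 of 2146 words (0.326%), all of them with the cytoplasmic actin gene Actg1, and none with the skeletal actin gene Acta1, the cardiac actin gene Actc1 or the enteric actin gene Actg2. Acta1 itself ranged from 1.01 to 1290 CPM in untreated KO and from 3.10 to 495 CPM in untreated WT, whereas Acta2 ranged only from 15.5 to 29.9 CPM and from 7.51 to 34.5 CPM in the same libraries. Whether the counting used strand is not given in the sources used here.

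Contractile genes are known targets of the serum response factor, which binds the CArG box: CC, then 6 bases that are A or T, then GG. RefSeq promoter windows of GRCm38.p6 (250 bases before the start to 50 bases after it) were at hand for 7 members. Acta2 and Myl9 held the box on searching both strands, allowing 1 G or C among the 6 inner bases. The 30 bases around each match are shown, 5′ to 3′ on the strand of the gene, with the match in capitals, because no match was found in the other 5 windows.
Acta2, chr19:34255438-34255467, minus strand: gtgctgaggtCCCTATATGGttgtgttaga
Acta2, chr19:34255388-34255417, minus strand: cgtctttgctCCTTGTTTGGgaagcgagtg
Myl9, chr2:156775293-156775322, plus strand: caagcagaggCCTAATAAGGccgggctggc
Myl9, chr2:156775355-156775384, plus strand: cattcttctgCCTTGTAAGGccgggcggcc
The matches began 84 and 34 bases before the RefSeq start of Acta2 and 161 and 99 bases before that of Myl9. Only the first of the Myl9 matches had inner bases of A and T alone. Of all 32851 promoter windows, 9.98% held a box when 1 G or C was allowed and 1.63% when none was, against 7 of 21 windows of the skeletal muscle list and 0 of 22 windows of other smooth muscle and pericyte genes when 1 was allowed. The windows of Des, Lmod1, Rgs5, Cnn1 and Cspg4 held no match in these letters, and bases outside the windows were not searched. Neither Acta2 nor Myl9 passed edgeR's test in any comparison.

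The comparison of untreated KO with untreated WT asked which transcripts differ in BAT that lacks CPEB2. No member passed a false discovery rate (FDR) of 0.05 in edgeR's quasi-likelihood test, nor did any of the 17869 genes tested (0%). DESeq2 called 0 of the 10 as well. At an unadjusted p under 0.05, edgeR picked 3 of the 10 members (Des higher, Myh11 and Rgs5 lower in KO), where 15.9% of all genes reached that level. The libraries of the groups did not overlap for 2 members, Myh11 and Rgs5, where 1.4% of all genes had no overlap and 0.907% were lower in KO without overlap.

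Myh11, which lies at chr16:14194535-14291372 on the minus strand of GRCm38, was at 18.9, 32.3, 18.4, 20.6 and 34.9 CPM in WT 1 to 5. In KO 1 to 5 it was at 12.0, 17.7, 11.5, 16.6 and 10.7 CPM. The highest KO library was thus below the lowest WT library. The log2 fold change was -0.87 (SE 0.261, 95% confidence interval -1.44 to -0.31, FDR = 0.305). With the skeletal muscle score (the mean log2 CPM of the 24 genes) as a covariate it was -0.82, and without WT 1 and 2 it was -0.78. Without the library labelled KO 1, whose Cpeb2 stood at the WT level, it was -0.83.

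Rgs5 (chr1:169655501-169695813, plus strand) was at 364, 342, 378, 413 and 368 CPM in WT 1 to 5, the tightest group of the untreated cohort. It was at 237, 311, 169, 275 and 103 CPM in KO 1 to 5. Each KO library lay below each WT library, and KO 5 and KO 3 lay lowest. The log2 fold change was -0.77 (SE 0.291, interval -1.40 to -0.14, FDR = 0.305), -0.78 with the skeletal muscle score as a covariate, -0.77 without WT 1 and 2, -0.80 without the library labelled KO 1 and -0.59 without KO 5. The 6 libraries without Y-linked transcripts, WT 3 and 5 and KO 1, 3, 4 and 5, were not evenly divided between the genotypes. With the Y-linked level as a covariate the log2 fold changes were -0.68 for Rgs5 and -0.84 for Myh11.

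The other 2 pericyte genes overlapped between the genotypes. Pdgfrb was at 24.1, 22.1, 22.5, 33.1 and 20.5 CPM in WT and ran from 12.0 CPM (KO 1) to 35.2 CPM (KO 2) in KO, with a log2 fold change of -0.04 (interval -0.65 to 0.56). Cspg4 (chr9:56865033-56899870, plus strand) was at 76, 91.8, 46.9, 71.9 and 49.0 CPM in WT and at 44.2, 56.7, 76.2, 64 and 115 CPM in KO (0.08, interval -0.55 to 0.72). Without WT 1 and 2, Pdgfrb was at -0.03 and Cspg4 at 0.42. The library with the least Rgs5, KO 5, thus held the most Cspg4.

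Des (chr1:75360329-75368579, plus strand) was at 36.1, 47.1, 156, 36.2 and 74.6 CPM in WT 1 to 5. It was at 186, 193.3, 88.8, 89.9 and 160 CPM in KO 1 to 5. The 4 libraries above 150 CPM were WT 3 and KO 1, 2 and 5, the same 4 libraries whose skeletal muscle genes summed to over 1500 CPM. The log2 fold change was 1.04 (SE 0.432, interval 0.10 to 1.97, FDR = 0.305), 0.81 with the skeletal muscle score as a covariate, 0.73 without WT 1 and 2, 0.93 without the library labelled KO 1 and 1.57 without WT 3. KO 3 and KO 4, whose skeletal muscle genes summed to only 216 and 63.7 CPM, held 88.8 and 89.9 CPM of Des, above the 4 WT libraries other than WT 3. Under the 2-fold and FDR 0.5 rule of the study, Des was the only member called (higher), as were 6.04% of all genes.

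The other 5 contractile genes overlapped between the genotypes. Acta2 (chr19:34241090-34255590, minus strand) was at 7.51, 14.0, 21.4, 22.2 and 34.5 CPM in WT and at 15.5, 27.0, 26.9, 26.5 and 29.9 CPM in KO, with a log2 fold change of 0.34 (SE 0.351, FDR = 0.600), which was 0.13 without WT 1 and 0.02 without WT 1 and 2. Tagln (chr9:45929619-45936058, minus strand) was at 4.73, 6.89, 12.7, 13.1 and 17.7 CPM in WT and at 7.62, 17.7, 12.2, 14.2 and 18.8 CPM in KO (0.35, SE 0.361, FDR = 0.592), which was 0.16 without WT 1 and 0.03 without WT 1 and 2. WT 1 was the lowest library for both genes, and for Myl9, Lmod1 and Des. Myl9 (chr2:156775420-156781658, plus strand) was at 6.58, 8.19, 20.2, 16.1 and 19.8 CPM in WT and at 7.19, 20.9, 13.4, 16.0 and 24.9 CPM in KO (0.22, interval -0.62 to 1.06, and -0.11 without WT 1 and 2). Lmod1 (chr1:135324807-135368065, plus strand) was at 1.54, 1.61, 2.92, 1.88 and 2.51 CPM in WT and at 3.05, 3.68, 1.89, 3.63 and 2.58 CPM in KO (0.50, interval -0.18 to 1.19, and 0.33 without WT 1 and 2), and Cnn1 at 0.648, 1.3, 0.778, 0.943 and 2.57 CPM and at 0.534, 0.801, 1.26, 1.53 and 2.76 CPM (0.14, interval -0.98 to 1.26, and 0.04 without WT 1 and 2). Myh11 had a log2 fold change of opposite sign to the other 6 contractile genes with all libraries, and to 5 of them without WT 1 and 2, when Myl9 too was below 0. KO 5, lowest of all 10 libraries in Myh11 and Rgs5, was highest in Cnn1, Cspg4, Myl9 and Tagln.

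**Figure D2:**
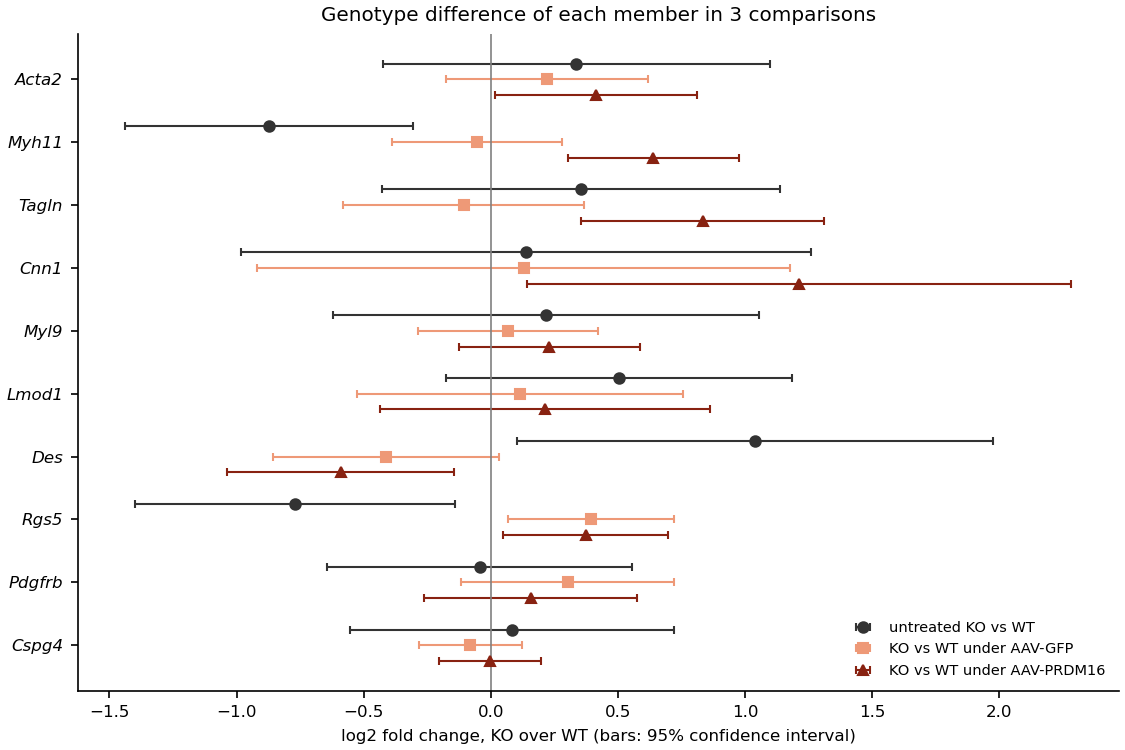
Log2 fold change of KO over WT for each of the 10 genes in the 3 comparisons of the genotypes, from edgeR's quasi-likelihood fit. Symbols are the estimates and bars the 95% confidence intervals; none passed an FDR of 0.05. Rgs5 lies at -0.77 in untreated mice and at 0.39 and 0.37 with AAV-GFP and AAV-PRDM16, and Des lies at 1.04, -0.41 and -0.59.

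Under AAV-GFP, KO was compared with WT in mice that had received the control virus. Of the 10 members, 0 passed the FDR of 0.05 in edgeR and 0 in DESeq2, where edgeR called 0.0529% of 18899 genes. Rgs5 was the only member at an unadjusted p under 0.05 (9.18% of all genes) and the only one whose libraries did not overlap (13.4% of all genes). It was at 386, 306 and 387 CPM in the WT mice and at 434, 484 and 499 CPM in the KO mice. The log2 fold change was 0.39 (SE 0.149, interval 0.07 to 0.72, FDR = 0.451), with KO above WT in contrast to the untreated cohort. Des was at 35.6, 43.3 and 48.0 CPM in WT and at 41.9, 30.0 and 23.5 CPM in KO (-0.41, SE 0.204, FDR = 0.590). KO + AAV-GFP 1, the library with the most skeletal muscle RNA of the cohort (164 CPM), had the highest Des of its group. The log2 fold change of Des was -0.66 without that library and -0.24 without KO + AAV-GFP 3. Myh11 (-0.05), Tagln (-0.11), Myl9 (0.07), Lmod1 (0.11), Cnn1 (0.13) and Cspg4 (-0.08) had log2 fold changes within 0.13 of 0, and Acta2 and Pdgfrb stood at 0.22 and 0.30. Without KO + AAV-GFP 1 these were 0.12 and 0.47, and without KO + AAV-GFP 3 Pdgfrb was at 0.10. With all libraries the intervals of these 8 genes include 0.

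Under AAV-PRDM16, again 0 of the 10 members passed the FDR of 0.05 in edgeR, which called 0.0476% of all genes. DESeq2 called 2, Myh11 (FDR = 0.0125) and Tagln (FDR = 0.0207). At an unadjusted p under 0.05, edgeR picked 6 of the 10 (5 higher, 1 lower), where 13.7% of all genes reached that level, and 4 had no overlap between the groups, where 22.8% of all genes had none. Myh11 was at 12.5, 12.6 and 11.8 CPM in WT + AAV-PRDM16 and at 19.0, 23.4 and 15 CPM in KO + AAV-PRDM16. The KO libraries lay above the WT libraries, with a log2 fold change of 0.64 (SE 0.155, interval 0.30 to 0.98, FDR = 0.130). Tagln was at 3.21, 3.61 and 3.5 CPM in WT and at 7.01, 6.84 and 4.49 CPM in KO, again without overlap (0.83, SE 0.220, interval 0.36 to 1.31, FDR = 0.152).

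Cnn1, which lies at chr9:22099216-22109630 on the plus strand and had the fewest counts of the members (20 to 268 a library), was at 0.234, 0.420 and 0.636 CPM in WT + AAV-PRDM16. It was at 0.991, 1.5 and 0.501 CPM in KO + AAV-PRDM16. The groups overlapped through KO + AAV-PRDM16 3, and the log2 fold change of 1.21 (SE 0.492, interval 0.14 to 2.28, FDR = 0.304) passed only the 2-fold and FDR 0.5 rule of the study, as did 3.35% of all genes in the higher direction. Without KO + AAV-PRDM16 2 it was 0.80. Acta2 was at 6.79, 9.73 and 8.03 CPM in WT and at 10.9, 13.4 and 8.40 CPM in KO (0.41, SE 0.183, FDR = 0.345), which was 0.29 without WT + AAV-PRDM16 1 and 0.24 without KO + AAV-PRDM16 2. KO + AAV-PRDM16 3 was the lowest of its group for Myh11, Tagln, Cnn1, Acta2, Myl9 and Lmod1, and the highest for Rgs5 and Pdgfrb. The log2 fold changes of Myl9 and Lmod1 were 0.23 and 0.21, with intervals that include 0.

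Rgs5 was at 283, 354 and 365 CPM in WT + AAV-PRDM16 and at 411, 370 and 516 CPM in KO + AAV-PRDM16. The groups did not overlap, and the log2 fold change of 0.37 (SE 0.149, interval 0.05 to 0.70, FDR = 0.299) was close to that under AAV-GFP. Without WT + AAV-PRDM16 1 it was 0.26, and without KO + AAV-PRDM16 3 it was 0.23. Des was the only member lower in KO without overlap: 62.7, 39.8 and 47.8 CPM in WT against 33.2, 33.8 and 32.8 CPM in KO (-0.59, SE 0.205, interval -1.04 to -0.15, FDR = 0.239). With the skeletal muscle score as a covariate it was -0.58, and without WT + AAV-PRDM16 1, the library with the most Des of the cohort and the lowest skeletal muscle sum (35.6 CPM), it was -0.40. Pdgfrb ran from 20.1 to 29.4 CPM in WT and from 23.2 to 32.4 CPM in KO (0.16), and Cspg4 from 72.1 to 78.3 CPM and from 71.2 to 78.6 CPM (-0.00), with intervals that include 0.

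Prdm16 was at 45.9 to 128 CPM in the 6 mice with AAV-PRDM16 and at 23.9 to 40.2 CPM in the 6 with AAV-GFP. The effect of AAV-PRDM16 on the members was asked within each genotype, and edgeR and DESeq2 called 0 of the 10 in either, nor any gene in edgeR (0%). In WT, no member was at an unadjusted p under 0.05 (7.29% of all genes). Only Myh11 had no overlap (14.2% of all genes), at 17.6, 15 and 13.3 CPM with AAV-GFP against 12.5, 12.6 and 11.8 CPM with AAV-PRDM16 (log2 fold change -0.31, SE 0.154, FDR = 0.71). In KO, Myh11 was at 15.1, 15.5 and 13.6 CPM with AAV-GFP and at 19.0, 23.4 and 15 CPM with AAV-PRDM16 (0.38, SE 0.154, FDR = 0.654), and Tagln at 4.81, 4.12 and 3.99 CPM and at 7.01, 6.84 and 4.49 CPM (0.51, SE 0.218, FDR = 0.712). These 2 were the members at an unadjusted p under 0.05 (6.41% of all genes). The groups overlapped for each of the 10 members, where 9.43% of all genes had no overlap.

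The interaction of genotype and virus tests whether AAV-PRDM16 moved a gene differently in KO than in WT. No member passed the FDR of 0.05 in edgeR or DESeq2, nor did any gene in edgeR (0%). Myh11 (log2 difference 0.69, SE 0.218, interval 0.22 to 1.17, FDR = 1) and Tagln (0.94, SE 0.309, interval 0.27 to 1.61, FDR = 1) were at an unadjusted p under 0.05, as were 3.19% of all genes. Cnn1 had the largest estimate of the 10, at 1.09, with an interval from -0.41 to 2.58. The estimates of Rgs5 (-0.02), Lmod1 (0.10), Cspg4 (0.08), Pdgfrb (-0.15), Des (-0.18), Myl9 (0.16) and Acta2 (0.19) had intervals that include 0. Set against WT + AAV-GFP, KO + AAV-PRDM16 gave 0 calls in edgeR (0.00529% of all genes were called) and in DESeq2 and no member at an unadjusted p under 0.05 (7.93% of all genes). Des alone had no overlap there (13.2% of all genes), at a mean of 33.3 CPM against 42.3 CPM and a log2 fold change of -0.35. These comparisons share libraries with those of the genotypes.

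The members were set against the skeletal muscle score across the 10 untreated libraries, since both kinds of muscle use Des. Des had a Pearson r of 0.767 with the score (permutation test, p = 0.0131, 0.262 after adjustment over 20 relations) and a Spearman rho of 0.648 (permutation p = 0.0492, adjusted 0.637). Leaving out the 2 libraries farthest from the median score, KO 1 and KO 2, gave an r of 0.603 (exact permutation p = 0.118, n = 8). With fewer libraries and a narrower range of scores, that p cannot show whether the relation depended on them. Without WT 1 and 2 the r of Des was 0.864 (exact permutation p = 0.00841, adjusted 0.168). Within a genotype, 5 libraries are too few for an r. The other 9 members had an r between -0.414 (Cnn1) and 0.400 (Lmod1), and 0 of the 10 passed the adjusted threshold. With 1 library left out, the r of Lmod1 ran from 0.23 (without KO 2) to 0.802 (without KO 4). The latter had an exact permutation p of 0.0146, adjusted 0.146. In the 4 libraries with a skeletal muscle sum over 1500 CPM (WT 3 and KO 1, 2 and 5), Myh11 was at 18.4, 12.0, 17.7 and 10.7 CPM, and in the other 6 it ran from 11.5 to 34.9 CPM. Rgs5 ran from 103 to 378 CPM in those 4 and from 169 to 413 CPM in the other 6, and Acta2 from 15.5 to 29.9 CPM and from 7.51 to 34.5 CPM. Lmod1 was at 2.92, 3.05, 3.68 and 2.58 CPM in those 4, and ran from 1.54 to 3.63 CPM (KO 4) in the other 6. Within WT, WT 3 held 21.4 CPM of Acta2 and 378 CPM of Rgs5 at a sum of 4550 CPM, and WT 4 held 22.2 CPM of Acta2 and 413 CPM of Rgs5 at a sum of 74.4 CPM. In the AAV cohort, WT + AAV-PRDM16 2 and KO + AAV-GFP 1 stood apart with scores of 0.765 and 2.36 against -3.38 to -1.70 in the other 10, and no pooled r is given. Within those 10, the r of Des was -0.626 (permutation p = 0.0531, adjusted 0.488) and that of the other members lay between 0.171 (Cspg4) and 0.598 (Myl9), with 0 past the adjusted threshold. These values pool 4 groups. On deviations from group means, with all 12 libraries, the r of Des was 0.18 (permutation p = 0.576, adjusted 0.951).

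**Figure D3:**
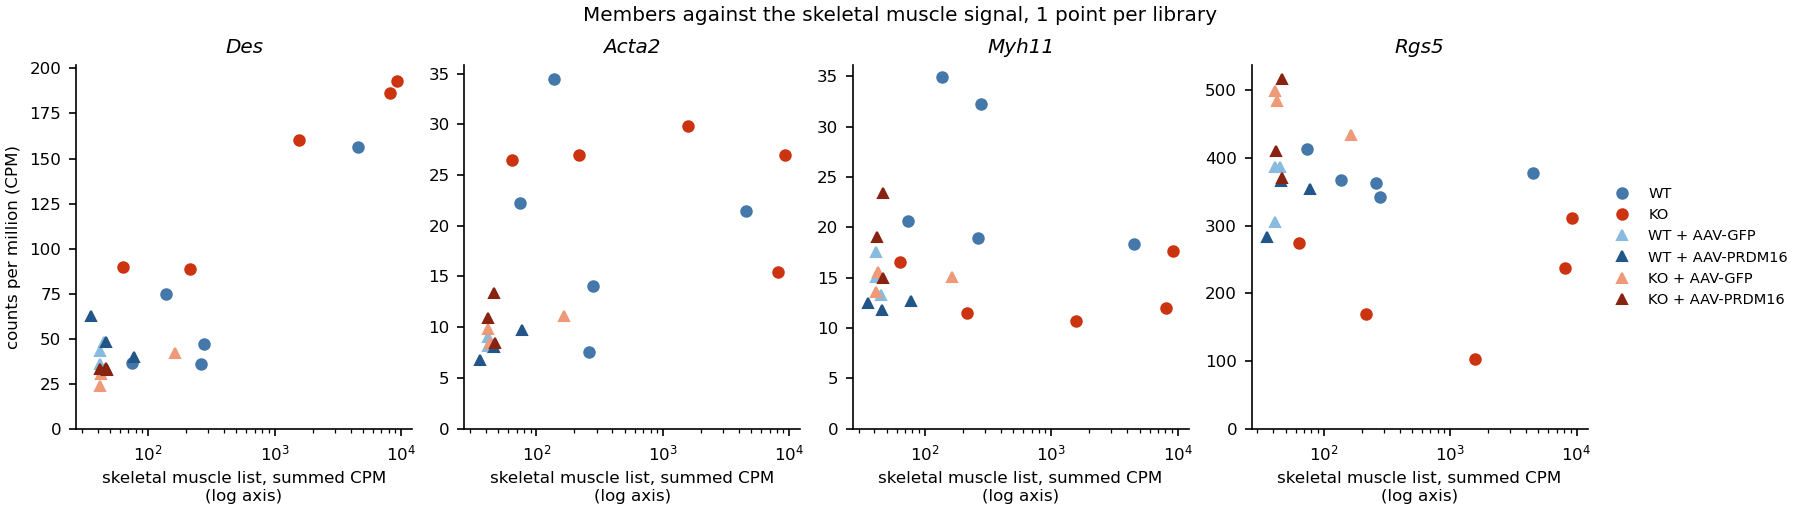
Level of Des, Acta2, Myh11 and Rgs5 (CPM, linear axis from 0) against the summed level of the skeletal muscle list (log axis) in each of the 22 libraries. Circles are untreated and triangles AAV-injected mice. Des exceeds 150 CPM only in the 4 libraries with a skeletal muscle sum above 1500 CPM, and Acta2, Myh11 and Rgs5 do not rank in that order.

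Beyond the members, 40 further vessel wall genes were listed by role, and all 40 were tested in both cohorts. In edgeR 0 of them passed the FDR of 0.05 in any of the 7 comparisons. DESeq2 called 2 in KO against WT under AAV-GFP (Cald1 and Synpo2, both actin-binding proteins). It called 3 under AAV-PRDM16 (Ednra, the endothelin receptor, and Gucy1a1, a subunit of the nitric oxide receptor, higher, and Npnt, a matrix protein, lower). Under AAV-PRDM16, 16 of the 40 were higher and 1 was lower in KO at an unadjusted p under 0.05, where 6.92% of all genes were higher and 6.80% lower at that level. The median log2 fold change there was 0.45 for the 40 genes and 0.30 for the 10 members, beside 0.01 for all genes tested. Under AAV-GFP it was 0.18 and 0.09, beside 0.01. In untreated mice it was 0.12 and 0.18, beside 0.04.

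Of the 12 other smooth muscle genes, the 3 most abundant were Cald1 (caldesmon), Mylk (myosin light chain kinase) and Smtn (smoothelin). Cald1 averaged 26.1 CPM in untreated KO against 31.2 CPM in WT, 46.2 against 26.6 CPM under AAV-GFP (log2 fold change 0.80, SE 0.214, FDR = 0.295) and 42.2 against 32.3 CPM under AAV-PRDM16. Mylk, which phosphorylates the Myl9 product, had log2 fold changes of -0.14, 0.29 and 0.40 in the same order, and Smtn of 0.83, 0.44 and 0.75. Of the 12 other pericyte genes, 9 had a positive and 3 a negative log2 fold change in untreated KO over WT (median 0.22). At an unadjusted p under 0.05, edgeR picked the 3 negative genes and 0 of the positive ones, where 15.9% of all genes reached that level. The 3 were Abcc9, Gucy1a1 (mean 4.14 CPM in KO against 6.7 CPM in WT) and Gucy1b1 (3.51 against 5.46 CPM). Abcc9, a subunit of the potassium channel of mural cells, averaged 23.0 CPM in untreated KO against 38.5 CPM in untreated WT without overlap (-0.74, SE 0.248, FDR = 0.305). It averaged 38.8 against 31.7 CPM under AAV-GFP (0.29) and 38.0 against 34.1 CPM under AAV-PRDM16 (0.15). Mcam (an adhesion molecule) and Notch3 (the Notch receptor of mural cells) stood at 0.28 and 0.24 in untreated mice, at 0.12 and 0.24 under AAV-GFP and at 0.60 and 0.49 under AAV-PRDM16.

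Among the 16 signalling genes of the vessel wall, the 3 most abundant were receptors: Tgfbr2 and Eng for TGF-β and Tek for angiopoietins. Their log2 fold changes in untreated KO were -0.60, 0.93 and -0.47, under AAV-GFP 0.03, 0.18 and 0.27, and under AAV-PRDM16 0.50, -0.19 and 0.44. Srf, which encodes the factor that binds the CArG box and is named here after its values were seen, averaged 44.6 CPM in untreated KO against 23.7 CPM in WT (0.92, SE 0.294, FDR = 0.305), 14.3 against 15.7 CPM under AAV-GFP (-0.13) and 12.4 against 13.9 CPM under AAV-PRDM16 (-0.17). Angpt1, the ligand of Tek and likewise named after its values were seen, averaged 5.29 CPM in untreated KO against 14.0 CPM in WT (-1.40, SE 0.412, FDR = 0.305), 19.5 against 24.3 CPM under AAV-GFP (-0.31) and 25.2 against 15.3 CPM under AAV-PRDM16 (0.72, FDR = 0.216).

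The skeletal muscle list had a median log2 fold change of 1.80 in untreated KO over WT, of 4.2 under AAV-GFP, where KO + AAV-GFP 1 alone exceeded 50 CPM in sum, and of -1.65 under AAV-PRDM16. In the last comparison WT + AAV-PRDM16 2 stood at a sum of 77.6 CPM, while the other WT libraries stood at 35.6 and 46.1 CPM and the KO libraries at 41.8, 46.5 and 47.1 CPM. With AAV these medians take in genes near the floor. Ckm, Myh1, Myh4, Mybpc2 and Pvalb were at 0 CPM in every WT + AAV-GFP library. Under AAV-PRDM16, the 10 endothelial genes had a median log2 fold change of 0.42 in KO over WT and the 9 fibroblast genes of 0.62, the summed endothelial level was 561 to 702 CPM in KO against 487 to 546 CPM in WT, and the summed fibroblast level 272 to 310 CPM against 155 to 214 CPM. The most abundant of these genes had log2 fold changes of 0.49 (Cdh5), 0.40 (Flt1) and -0.06 (Kdr) for the endothelium, and of 0.85 (Col3a1), 0.32 (Dcn) and 0.62 (Col1a2) for fibroblasts. Their part in the values of Myh11, Tagln and Rgs5 was not tested. Under AAV-GFP the endothelial sum overlapped (452 to 753 CPM in KO, 492 to 614 CPM in WT), with KO + AAV-GFP 1 lowest of all 12 libraries. Rgs5 of that library was at 434 CPM. In untreated mice the endothelial sum was 564 to 1360 CPM in KO and 468 to 917 CPM in WT. The part of the endothelial level in the Rgs5 values of these comparisons was not tested. The brown fat list went the other way under AAV-PRDM16: it summed to 8460 to 9400 CPM in KO against 10500 to 12400 CPM in WT without overlap, 11 of its 12 genes had a negative log2 fold change (median -0.39, 6 lower at an unadjusted p under 0.05), and its part in the values of the members was not tested. Under AAV-GFP it summed to 8620 to 8890 CPM in KO and 8120 to 10900 CPM in WT (median -0.15), and in untreated mice to 10000 to 21000 CPM in KO and 9510 to 19100 CPM in WT (median 0.29). The cardiac list summed to at most 18.9 CPM and the lymphocyte list to at most 50 CPM in any library. None of these lists held a gene at an FDR of 0.05 in any comparison.

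**Figure D4:**
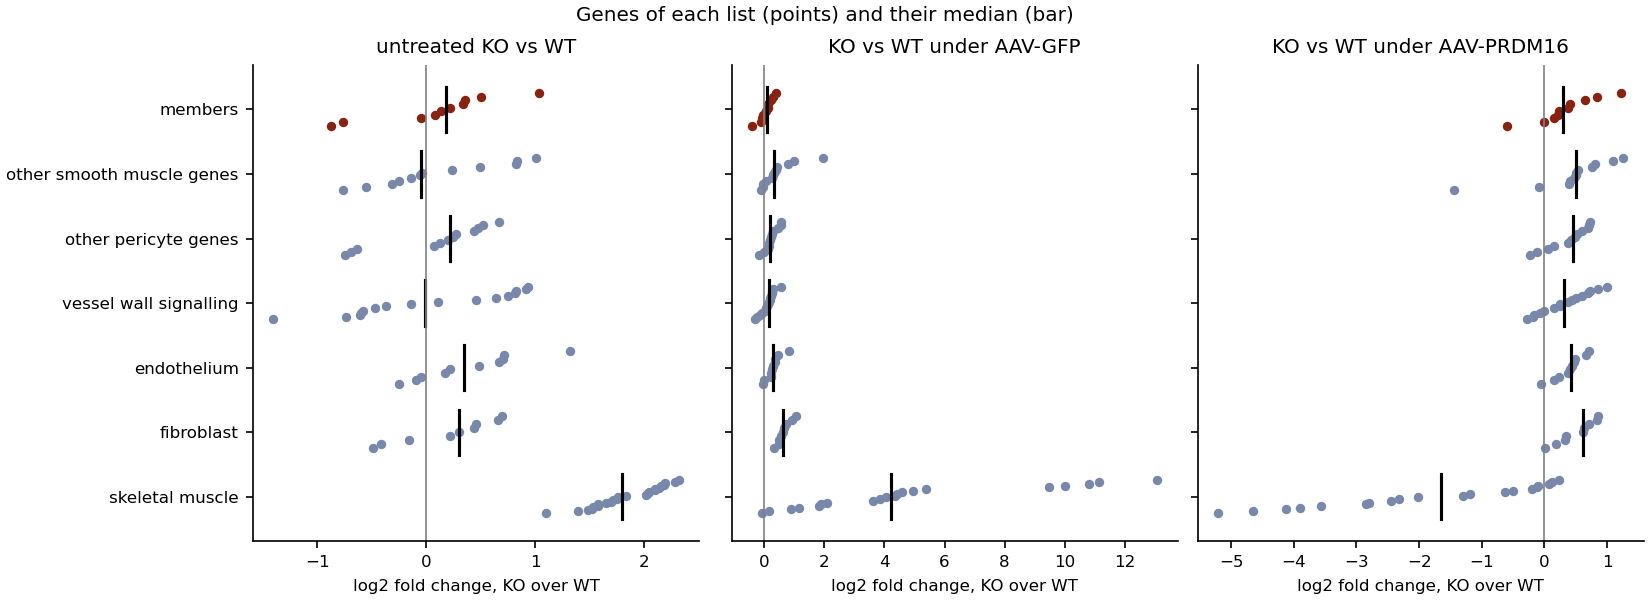
Log2 fold changes of KO over WT for each tested gene of 7 lists in the 3 comparisons of the genotypes; points are genes, sorted within a list, and bars are the list medians. The horizontal ranges differ between the panels. Under AAV-PRDM16 the medians of the members (0.30) and of the 3 other vessel wall lists lie above 0 and that of the skeletal muscle list (-1.65), in which WT + AAV-PRDM16 2 alone exceeded 50 CPM in sum, lies below it, whereas in untreated mice the members span -0.87 to 1.04 and the skeletal muscle genes lie above 0.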

How the data were processed

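RNA from BAT of 22 mice was made into libraries with a SureSelect XT HS2 mRNA kit. Per the labels, the submitters' processing notes name bcl2fastq 2.20, Trimmomatic 0.36, HISAT2 and GRCm38.p6. How reads were assigned to genes, and whether strand or molecular identifiers were used, is not given in the sources used here. The deposited values are raw counts per Ensembl gene, in 1 table per cohort, which the authors had not normalised. Symbols, positions and exon lengths came from GENCODE M21 (55141 of 55487 genes matched). Counts were filtered (filterByExpr), scaled by TMM and tested with edgeR 4.0.16 in R 4.3.3 (quasi-likelihood, two-sided, Benjamini-Hochberg over all genes tested), genotype alone in the untreated cohort and 4 groups in 1 fit with AAV. CPM use these scaled library sizes. The test was checked on simulated data. DESeq2 1.42.0, RLE scaling, no filter, a replicate block, covariates and leaving out libraries were alternatives. Correlations used 100000 permutations of log2 CPM (prior count 2), all orders where n was under 10. The labels do not say that mice of a group came from separate litters, so p-values measure the spread between these mice. Replicate numbers did not pair the mice. All 10 members are named, with the 3 most abundant genes of each other vessel wall list. Synpo2, Ednra, Gucy1a1, Gucy1b1, Npnt, Srf and Angpt1 were named after their values were seen. Lists of other cell types are given by their sums and medians. The members and lists were chosen with earlier results of these data known.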

Additional observations from a re-analysis of the deposited data

Results flagged for a closer look

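Rgs5 went in opposite directions between the genotypes in the 2 cohorts. Every untreated KO library lay below every untreated WT library (log2 fold change -0.77), while every KO library lay above every WT library under AAV-GFP (0.39) and under AAV-PRDM16 (0.37). Myh11 did the same between untreated mice (-0.87) and mice with AAV-PRDM16 (0.64), but not under AAV-GFP. Of all genes, 1.4% had no overlap in untreated mice, 13.4% under AAV-GFP and 22.8% under AAV-PRDM16. In that order the FDR was 0.305, 0.451 and 0.299 for Rgs5, and 0.305, 0.964 and 0.130 for Myh11. The difference between the cohorts was not tested, because the tables were scaled separately. The cohorts also differed in Y-linked transcripts, which 2 WT and 4 KO untreated libraries lacked. Every library with AAV held at least 154 CPM of them and at most 0.268 CPM of Xist. Food withdrawal before collection is given for the untreated mice alone. Cohort, age range, virus, food withdrawal and the mix of Y-linked levels cannot be told apart.

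Among 20 groups of 5 untreated libraries, 1 for each member and genotype, 2 held a library far from the other 4, where chance alone gives about 1 in 20. Acta2 of the library labelled KO 1 was at 15.5 CPM against 26.5 to 29.9 CPM in the other KO libraries, and that library also held Cpeb2 at the WT level and 8130 CPM of skeletal muscle genes. Pdgfrb of WT 4 was at 33.1 CPM against 20.5 to 24.1 CPM in the other WT libraries, and that library also had the highest fibroblast sum of the untreated cohort (754 CPM).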

How the results depend on the processing

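The count of 0 members called in edgeR was the same in each comparison under RLE scaling, no filter, the replicate block, the covariates and each library left out (0 to 0). Under DESeq2 it was 2 for KO against WT under AAV-PRDM16 (with 3 other vessel wall genes), and 2 other vessel wall genes were called under AAV-GFP. Under the 2-fold and FDR 0.5 rule it was 1 in untreated mice (Des, with 1 other gene, Angpt1) and 1 under AAV-PRDM16 (Cnn1, with 1 other gene, Npnt). The cause was not tested. The replicate block, whose numbers share no animal or batch in the labels (correlations of same-numbered mice from -0.292 to 0.154), gave 0 members called in each comparison. In untreated mice with the block, the log2 fold changes of Myh11, Rgs5 and Des were -0.84, -0.86 and 1.25. Without WT 1 and 2, which leaves fewer libraries, the FDR of each of these genes in edgeR was 0.867. Their unadjusted p was then 0.0181, 0.0484 and 0.17.

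Values near 0 changed sign, none of them called. In untreated mice Pdgfrb was 0.018 under DESeq2 and RLE scaling and 0.124 with the Y-linked covariate, Cnn1 was -0.187 with that covariate, and Myl9 was -0.115 without WT 1 and 2. Cspg4 under AAV-PRDM16 was 0.0028 with DESeq2 and 0.0025 with RLE scaling. Leaving out 1 library at a time, the log2 fold changes in untreated mice ran from -0.282 to 0.579 for Cnn1, -0.194 to 0.123 for Pdgfrb and -0.157 to 0.218 for Cspg4. Under AAV-GFP they ran from -0.149 to 0.056 for Myh11, -0.263 to 0.136 for Tagln, -0.034 to 0.486 for Cnn1, -0.012 to 0.180 for Myl9 and -0.042 to 0.257 for Lmod1. Under AAV-PRDM16 they ran from -0.128 to 0.36 for Lmod1 and -0.038 to 0.034 for Cspg4. The interaction ran from -0.240 to 0.257 for Lmod1, -0.356 to 0.063 for Des, -0.166 to 0.084 for Rgs5 and -0.316 to 0.051 for Pdgfrb. Its median over the members was 0.27 without KO + AAV-PRDM16 3. Of the member log2 fold changes printed in the report, the other 477 values with 1 library left out kept their sign, including those of Myh11, Rgs5 and Des in untreated mice and of Myh11, Tagln, Rgs5 and Des under AAV-PRDM16. The rarest member, Cnn1, rested on as few as 20 counts in a library.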
